A study of Mus musculus with 8 samples.

Results

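The data compared here are the genome-wide C/EBPα binding maps of mouse progenitors whose genotype the labels call DE and of WT progenitors, 4 of the 8 libraries of the series. Both groups were sorted from bone marrow as Lin- KIThi-int FLT3+ cells, meaning cells without mature lineage markers that carry the receptors KIT and FLT3. DE is, like DC, a variant of the Zeb2 -165 kb enhancer; the labels do not say which bases it changes. Each genotype had 1 library in each of 2 batches named in the labels, and library 1 is batch 1 throughout. Age, sex, the number of animals and pooling are not given in the labels, so a p-value here speaks of these libraries and not of animals. In the limma tests the spread between libraries was pooled over regions of like pileup. Autosomal peaks of the 4 lists were joined wherever they overlapped by 1 bp, which gave 131449 regions. Of these, 25416 (19.3%) had a peak in all 4 libraries and were tested, and 85331 had a peak in a single library.

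C/EBPα is a basic leucine zipper transcription factor that binds DNA as a dimer and directs progenitors toward granulocytes and monocytes. Zeb2 encodes a zinc finger repressor that helps steer progenitors toward monocytes, plasmacytoid dendritic cells and the second class of conventional dendritic cells (cDC2), whereas the first class (cDC1) depends on IRF8, BATF3, NFIL3 and ID2. E proteins bind E boxes and are held back by ID proteins, and the enhancer studied here is known for its C/EBP and E protein sites.

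CUT&RUN, the assay used, frees DNA next to an antibody-bound protein with a tethered nuclease. The value compared is the summit pileup, the number of fragments that cover a peak's highest point. It was worked back from the fold and p-value of each deposited peak and scaled so that the tested regions had the same median in every library. The WT lists held 79377 and 55666 autosomal peaks and the DE lists 51071 and 56036. DE therefore had 0.643 times as many peaks as WT in batch 1 and 1.01 times as many in batch 2 (exact permutation test without regard to batch, two-sided p = 0.667). With 2 against 2 this p cannot go below 0.333. Before scaling, the median pileup at tested regions was 32 and 32 in WT and 39 and 29 in DE. Read totals are unknown. Peak lists show binding and not expression, so the sorted phenotype could not be checked. At least 1 region within 10 kb of a gene end was called in both WT libraries for 54.7% of all autosomal protein-coding genes. The same held for 17 of 18 neutrophil genes, 20 of 21 stem and progenitor genes, 6 of 15 T and NK cell genes and 4 of 16 liver and fat genes, but also for 15 of 15 housekeeping genes.

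C/EBPα binding was higher in DE than in WT at 187 regions and lower at 67, which is 0.736% and 0.264% of the regions tested (limma with batch as a term, adjusted p under 0.05). At the 187 regions the median scaled pileup went from 26.6 fragments in WT to 72.1 in DE, a median difference of 2.73-fold. At the 67 regions it went from 54.1 to 19.2, a median difference of 2.84-fold. Over all tested regions the medians were 33.0 and 32.8. All 254 called regions (0.999% of those tested) differed in the same direction in both batches, compared with 54.9% of all tested regions. At 185 of the 187 and 65 of the 67 the DE and WT libraries did not overlap, compared with 32.7% of all tested regions. The calls rest on the mean of these same batch differences, so both counts follow largely from the selection and are not separate support. Without batch in the fit 0 regions passed in either direction, with 729 higher and 552 lower at an unadjusted p under 0.05 (limma). Scaling by the background floor of each library instead of the median left 3 higher and 0 lower, and 39 higher and 0 lower regions passed in every fit that left out 1 library (batch as a term, spread from 6 libraries). With 1 residual degree of freedom, limma took each region's error from the trend of spread with pileup rather than from that region's own libraries.

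Batch 1 and batch 2 share no library, so each gives its own difference between DE and WT. Across the 25416 regions the batch differences had Pearson's r of 0.228 and the same sign at 54.9%; regions are not independent replicates. Of 1142 regions at least 2-fold higher in DE in batch 1, 228 (20.0%) were also at least 2-fold higher in batch 2, compared with 4.28% of all tested regions. Of 887 at least 2-fold lower in batch 1, 136 (15.3%) were so in batch 2, compared with 4.60% of all. Most regions that stood out in a single batch did not do so in the other.

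**Figure D1:**
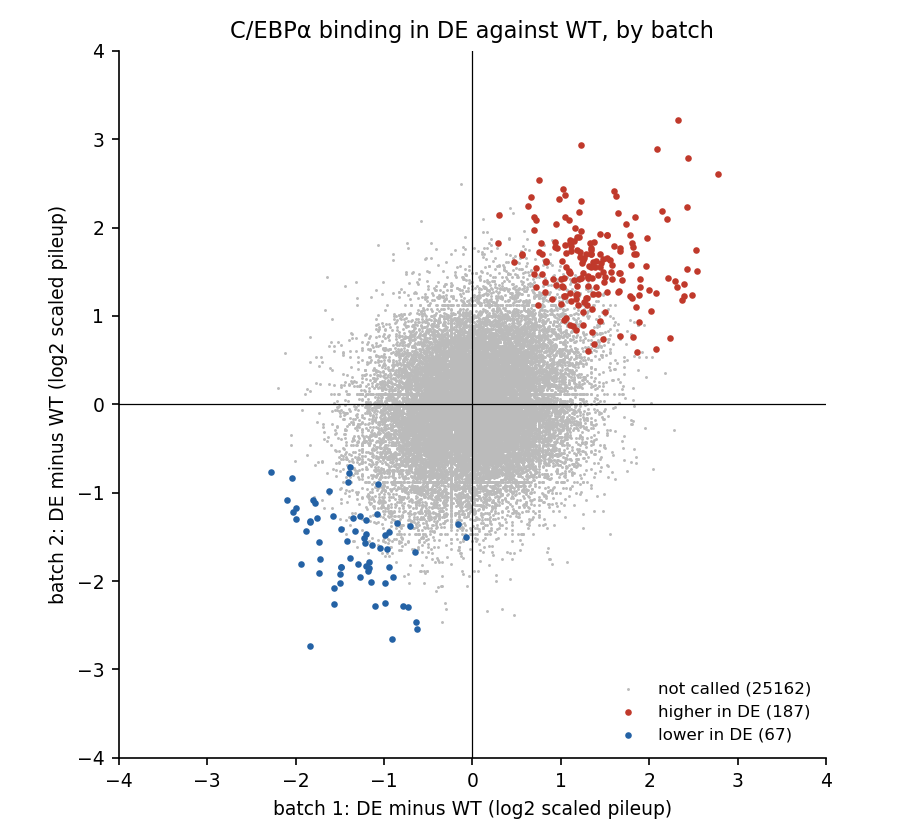
Each point is 1 of the 25416 tested regions, with the log2 difference in scaled pileup between DE and WT in batch 1 on the horizontal axis and in batch 2 on the vertical axis. The 187 regions called higher lie in the upper right and the 67 called lower in the lower left, while the grey cloud of uncalled regions is nearly round around 0.

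The region with the largest fitted rise lay inside Asic2, which encodes an acid-sensing ion channel (chr11:81806911-81807308, mm10). Its pileup was 14 and 9 fragments in the WT libraries and 83 and 77 in the DE libraries, and the DE values stood far above the WT values in both batches. The fitted difference was 6.81-fold (log2 2.77 ± 0.38 SE, limma adjusted p = 2.34e-09). A region 72.3 kb from Prl2c3, a gene of the prolactin family, had pileups of 15 and 12 in WT and 122 and 67 in DE (chr13:12718047-12718482). It differed by 6.45-fold (log2 2.69 ± 0.36 SE, limma adjusted p = 2.34e-09). At both regions every WT value was below the 25th percentile of WT binding (21.0 scaled fragments) and every DE value above the 75th percentile of DE binding (59.2).

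Among strongly bound regions, the clearest rise was inside Tbc1d16, which encodes a GTPase-activating protein that turns Rab proteins off (chr11:119191572-119192420). The pileup was 179 and 128 in WT and 623 and 364 in DE, and the lowest DE value was above the highest WT value before and after scaling. The difference was 3.01-fold (log2 1.59 ± 0.24 SE, limma adjusted p = 7.51e-08). Close to Dynlt1b, a dynein light chain gene, a region 22.3 kb away had pileups of 110 and 98 in WT and 325 and 266 in DE, a 2.71-fold rise (log2 1.44 ± 0.25 SE). Another region at an end of Dynlt1b rose as well, with 49 and 75 in WT and 151 and 111 in DE.

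The other regions named as most clearly higher lay near genes of varied function. Inside Thsd4, which encodes a thrombospondin-repeat protein of the extracellular matrix, the pileup was 47 and 19 in WT and 131 and 134 in DE. A region 98.6 kb from Arhgap21, which encodes a GTPase-activating protein, had 16 and 11 in WT and 81 and 75 in DE. These were rises of 4.24-fold and 5.62-fold. Inside Hbs1l, whose product acts in ribosome rescue, the values were 17 and 10 in WT and 89 and 42 in DE. Within 1 kb of an end of Med29, which encodes a Mediator subunit, they were 19 and 21 in WT and 89 and 71 in DE. Within 1 kb of an end of Trim27, which encodes a tripartite motif ubiquitin ligase, they were 20 and 14 in WT and 109 and 55 in DE. The DE libraries were the higher pair in each case. Inside Prkch, which encodes protein kinase C eta, the pileup was 27 and 52 in WT and 128 and 117 in DE. Regions near Map10, 2310022B05Rik, Ugt1a10 and Ccdc83 rose by 5.03-fold, 4.39-fold, 3.95-fold and 2.80-fold. Ugt1a10, a glucuronosyltransferase gene, was the nearest gene of 3 regions that rose.

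**Figure D2:**
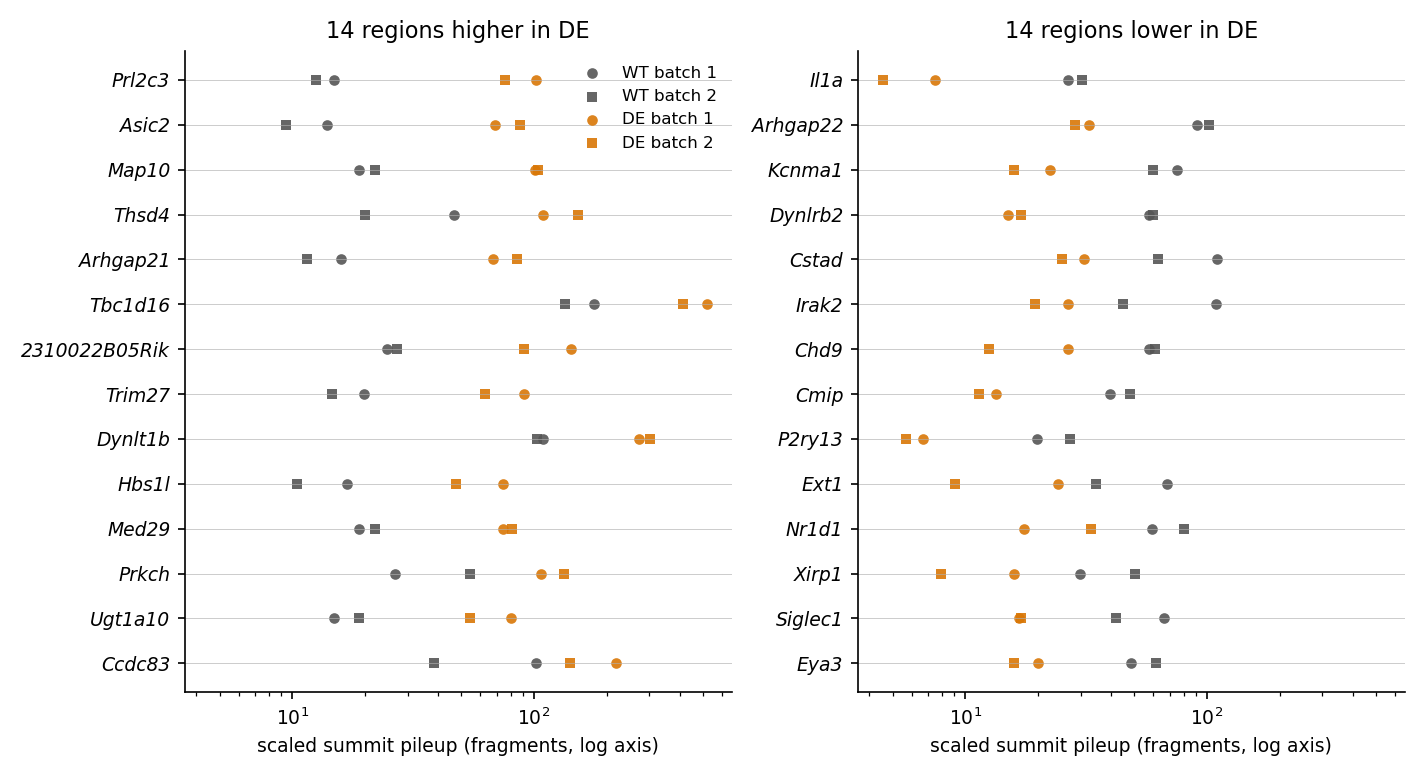
Scaled summit pileup, on a log axis, of the 14 regions most clearly higher (left) and the 14 most clearly lower (right) in DE, by nearest gene; grey marks WT, orange DE, circles batch 1 and squares batch 2. At every region shown both DE points lie on the same side of both WT points, and the regions higher in DE span a wider range of pileups than those lower in DE.

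Genes of the neutrophil list held 3 called regions, all higher in DE and all next to S100a9, which with S100a8 encodes calprotectin, an abundant neutrophil protein. At the S100a9 start (chr3:90695459-90696066) the pileup was 19 and 64 in WT and 82 and 89 in DE. WT library 2 came close to the DE values there, and the rise was 1.86 on the log2 scale in batch 1 and 0.60 in batch 2. A region 5.31 kb from the gene had 98 and 63 in WT and 242 and 114 in DE. The region 9.89 kb away had 31 and 41 in WT and 97 and 95 in DE. The fitted rises were 2.34-fold, 2.02-fold and 2.58-fold (limma adjusted p = 0.0192, 0.0242 and 0.00389). The same regions lay 12.04 to 25.4 kb from S100a8, so they are neighbours in 1 locus and not separate loci. Ly6c2, which encodes the monocyte surface antigen Ly6C, had 1 region 5.48 kb from its end with 17 and 8 in WT and 55 and 28 in DE (3.22-fold, limma adjusted p = 0.00749). With the deposited fold in place of the pileup, the region at the S100a9 start did not pass (limma adjusted p = 0.0719). The other S100a9 regions and the Ly6c2 region did. Leaving out a library, with the spread taken from all 6 anti-C/EBPα libraries, removed the call at every one of these 4 regions in at least 1 fit: the region 9.89 kb from S100a9 without WT replicate 1, the one at its start without WT replicate 1 or DE replicate 1, the third without WT replicate 2 or DE replicate 1, and Ly6c2 without WT replicate 2 or DE replicate 2.

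Several regions farther from dendritic cell and progenitor genes also rose, and these were picked after their values were seen. Within 50 kb of the cDC1 list, 2 of 72 tested regions rose and 2 fell (2.78% each), compared with 0.736% and 0.264% of all. Within 50 kb of the stem and progenitor list, 0 of 125 rose and 0 fell. Irf8 encodes the transcription factor needed for cDC1 and monocytes. A region 20.5 kb beyond its end and 38.7 kb from its start (chr8:120777225-120777512) had a pileup of 12 and 13 in WT and 83 and 34 in DE. Both DE libraries were above both WT libraries, and the rise was 4.07-fold (log2 2.02 ± 0.39 SE, limma adjusted p = 0.000204). Id2 encodes the inhibitor of E proteins that cDC1 require. The region 155 kb from Id2 (chr12:25251342-25252089) had 49 and 37 in WT and 156 and 94 in DE. The region 216 kb away had 44 and 20 in WT and 109 and 54 in DE. The rises were 2.72-fold and 2.47-fold (limma adjusted p = 0.000872 and 0.0142), and distance alone does not tie either region to Id2. Within 10 kb of an end of Id2 itself, a region was called in both WT libraries but not in both DE libraries. Regions inside Stat5b, a cytokine signal transducer, and 25.2 kb from Tlr2, a receptor for bacterial lipoproteins, rose by 2.63-fold and 2.32-fold. A region 17.1 kb from Cxcr4, the receptor that holds progenitors in the marrow, rose by 2.65-fold, with 40 and 71 in WT and 175 and 125 in DE. Of these 6 regions, the nearer one to Id2 and those at Stat5b and Tlr2 passed in all 4 fits that left out 1 library with batch as a term and the spread from 6 libraries, and those at Irf8 and Cxcr4 and the farther one from Id2 did not.

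Among the regions lower in DE, the largest fitted fall was next to Il1a, which encodes the cytokine interleukin 1α (chr2:129311600-129311889). The pileup was 27 and 29 in WT and 9 and 4 in DE, so the DE libraries held few fragments at this site. The difference was 4.88-fold (log2 -2.29 ± 0.42 SE, limma adjusted p = 8.62e-05). Arhgap22, which encodes a GTPase-activating protein for Rac, was the nearest gene of 3 regions that fell. The strongest of them (chr14:33247601-33248040) had 92 and 97 in WT and 39 and 25 in DE, a 3.16-fold fall (limma adjusted p = 0.000197). The other regions of this group lay 46.6 and 49.4 kb from Wdfy4, a gene that cDC1 need for cross-presentation.

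Inside Irak2, a kinase of interleukin 1 and Toll-like receptor signalling, the pileup was 110 and 43 in WT and 32 and 17 in DE. Near Siglec1, a sialic acid receptor of macrophages, it was 67 and 40 in WT and 20 and 15 in DE. At an end of P2ry13, an ADP receptor, it was 20 and 26 in WT and 8 and 5 in DE. The falls were 3.08-fold, 3.12-fold and 3.77-fold, and DE lay below WT in both batches at each. A region 4.19 kb from Ccl5, a chemokine gene, fell by 1.24 on the log2 scale, from 52 and 82 in WT to 31 and 27 in DE (limma adjusted p = 0.0323). A region inside Ncf1, which encodes the p47 subunit of the phagocyte oxidase, had 85 and 56 in WT and 43 and 18 in DE. It fell by 1.37 on the log2 scale (limma adjusted p = 0.0102). With the deposited fold in place of the pileup neither passed (limma adjusted p = 0.109 for Ccl5 and 0.164 for Ncf1). Nor did the region at P2ry13 (limma adjusted p = 0.0632) or the one near Xirp1 described below (limma adjusted p = 0.217). With the spread from 6 libraries Ccl5 did not pass (limma adjusted p = 0.0595). The region that fell near Xirp1 lay 46.3 kb from Cx3cr1, the fractalkine receptor gene of monocytes, and had 30 and 48 in WT and 19 and 7 in DE. Regions near immune genes did not all fall: besides those near Tlr2 and S100a9, a region 18.4 kb from Il18, an interleukin gene, picked after its values were seen, had 13 and 15 in WT and 49 and 46 in DE (log2 1.70 ± 0.39 SE, limma adjusted p = 0.00388).

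Other regions that fell were less tied to blood cell function. Inside Kcnma1, a potassium channel gene, the pileup was 76 and 57 in WT and 27 and 14 in DE. A region 26.7 kb from Dynlrb2, a dynein light chain gene, had 58 and 57 in WT and 18 and 15 in DE. A region 7.99 kb from Nr1d1, which encodes the clock repressor REV-ERBα, had 60 and 77 in WT and 21 and 29 in DE, and the WT and DE pairs stood clearly apart. These falls were 3.54-fold, 3.66-fold and 2.88-fold. Regions in or near Cstad, Chd9, Cmip, Ext1 and Eya3 fell by 2.99-fold to 3.54-fold. With the deposited fold in place of the pileup, 11 of the 16 named regions that fell passed, against 17 of the 18 that rose. Dynlrb2 was among those that did not (limma adjusted p = 0.239). Of the 16 named regions that fell, 0 passed in all 4 fits that leave out a library with the spread from 6 libraries, against 13 of the 18 named regions that rose. Without WT replicate 2 alone, 12 of the 16 no longer passed.

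Some of the regions called higher or lower lay over an annotated start. The promoter windows of RefSeq (GRCm38.p6, the assembly of mm10) are 300 bases each, and 6 of them overlapped a region that rose and 12 a region that fell. Windows can share a region: those of Irak3 and Gm38500 lay over the same region that fell, as did those of Nab2 and 1700012D01Rik. The 12 are therefore not separate regions. Each was searched on both strands for TTGCNNAA, a core C/EBP motif, and for CAGGTG, an E box bound by E proteins and ZEB2; a match is a description of letters and not a site. TTGCNNAA was in 10.9% of all 31396 autosomal windows, in 12.04% of the 5764 over a tested region, in 1 of the 6 and in 4 of the 12. CAGGTG was in 20.5% of all windows, in 14.8% of those over a tested region, in 4 of the 6 and in 1 of the 12. The 5 windows with a C/EBP match are shown, each read 5′ to 3′ on the strand of its gene, because each overlaps a called region. Whether a match lies at the summit of a peak was not examined. S100a9 is the one that rose. Capitals mark TTGCNNAA on either strand and, at position 198 of S100a9 and position 12 of Ralgds (counted from 1 at the 5′ end), CAGGTG on either strand.
S100a9: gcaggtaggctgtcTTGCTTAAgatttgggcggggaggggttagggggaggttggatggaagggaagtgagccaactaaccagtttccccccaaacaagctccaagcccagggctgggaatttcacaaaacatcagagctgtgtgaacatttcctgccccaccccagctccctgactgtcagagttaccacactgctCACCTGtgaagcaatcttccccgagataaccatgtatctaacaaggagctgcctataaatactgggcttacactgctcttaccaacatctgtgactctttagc
Ralgds: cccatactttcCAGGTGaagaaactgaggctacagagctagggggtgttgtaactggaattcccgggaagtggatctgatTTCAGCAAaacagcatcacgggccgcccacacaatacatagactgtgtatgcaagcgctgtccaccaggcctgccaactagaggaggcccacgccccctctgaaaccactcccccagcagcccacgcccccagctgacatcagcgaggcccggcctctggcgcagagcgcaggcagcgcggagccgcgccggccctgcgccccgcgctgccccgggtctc
Ptpn23: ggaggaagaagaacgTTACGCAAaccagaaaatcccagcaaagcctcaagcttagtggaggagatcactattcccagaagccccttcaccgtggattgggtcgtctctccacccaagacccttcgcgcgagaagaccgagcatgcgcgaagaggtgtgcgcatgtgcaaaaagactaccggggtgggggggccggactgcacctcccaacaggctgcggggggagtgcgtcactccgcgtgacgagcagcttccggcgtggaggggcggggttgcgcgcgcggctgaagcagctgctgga
Irak3: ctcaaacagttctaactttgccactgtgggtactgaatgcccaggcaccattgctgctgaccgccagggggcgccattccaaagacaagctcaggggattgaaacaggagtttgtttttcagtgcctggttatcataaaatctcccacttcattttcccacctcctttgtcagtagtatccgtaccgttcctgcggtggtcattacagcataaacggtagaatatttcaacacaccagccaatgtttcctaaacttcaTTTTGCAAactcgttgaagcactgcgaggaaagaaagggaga
Slfn3: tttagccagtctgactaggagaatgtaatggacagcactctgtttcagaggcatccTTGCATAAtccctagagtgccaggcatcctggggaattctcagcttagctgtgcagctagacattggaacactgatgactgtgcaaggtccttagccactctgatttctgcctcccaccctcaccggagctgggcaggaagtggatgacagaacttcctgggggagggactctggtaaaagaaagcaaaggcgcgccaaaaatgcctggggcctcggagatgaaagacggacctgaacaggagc
The S100a9 window is chr3:90695672-90695971 on the minus strand, with its C/EBP match at position 15. Ralgds, which encodes an activator of Ral GTPases, has the window chr2:28533214-28533513 on the plus strand with the match at position 81. The pileup over it was 128 and 88 in WT and 78 and 26 in DE (log2 -1.30 ± 0.30 SE, limma adjusted p = 0.00428). The Ptpn23 window, of a phosphatase gene of endosomal sorting, is chr9:110408161-110408460 on the minus strand with the match at position 16. There the pileup was 83 and 68 in WT and 33 and 26 in DE (log2 -1.42 ± 0.33 SE, limma adjusted p = 0.00500), and DE was below WT in both batches. This region also lay 11.2 kb from Ngp, a granule protein gene of neutrophils. The Irak3 window, of a gene that restrains Toll-like receptor signalling, is chr10:120202081-120202380 on the minus strand with the match at position 259. Its pileups were 74 and 167 in WT and 54 and 59 in DE, with WT library 2 far above the others. The Slfn3 window, of a Schlafen family gene, is chr11:83191080-83191379 on the plus strand with the match at position 57, and its pileups were low, at 19 and 15 in WT and 10 and 4 in DE.

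Across 19 gene lists, regions within 10 kb of a listed gene held few calls. Regions rose near the neutrophil list (3 of 45 regions tested, median log2 difference 0.08) and the monocyte list (1 of 50, median -0.03), against 0.736% of all regions and a median of 0.00. Regions fell near the interleukin and chemokine list (2 of 53, median -0.15), the clock list (1 of 36, median -0.05) and the phagocyte oxidase and lysosome list (1 of 37, median -0.10), against 0.264% of all. The other 14 lists had 0 regions past the threshold in either direction. Among them, the cDC1 list had 24 regions with a median of -0.05, the cDC2 list 23 with -0.17 and the plasmacytoid dendritic cell list 15 with -0.23. The E protein and Id list had 10 regions with a median of -0.28, the C/EBP and other bZIP list 60 with -0.12, and the stem and progenitor list 53 with -0.05. Housekeeping genes had 35 regions with a median of -0.12, made of 0.15 in batch 1 and -0.35 in batch 2, so its batches differed in sign.

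**Figure D3:**
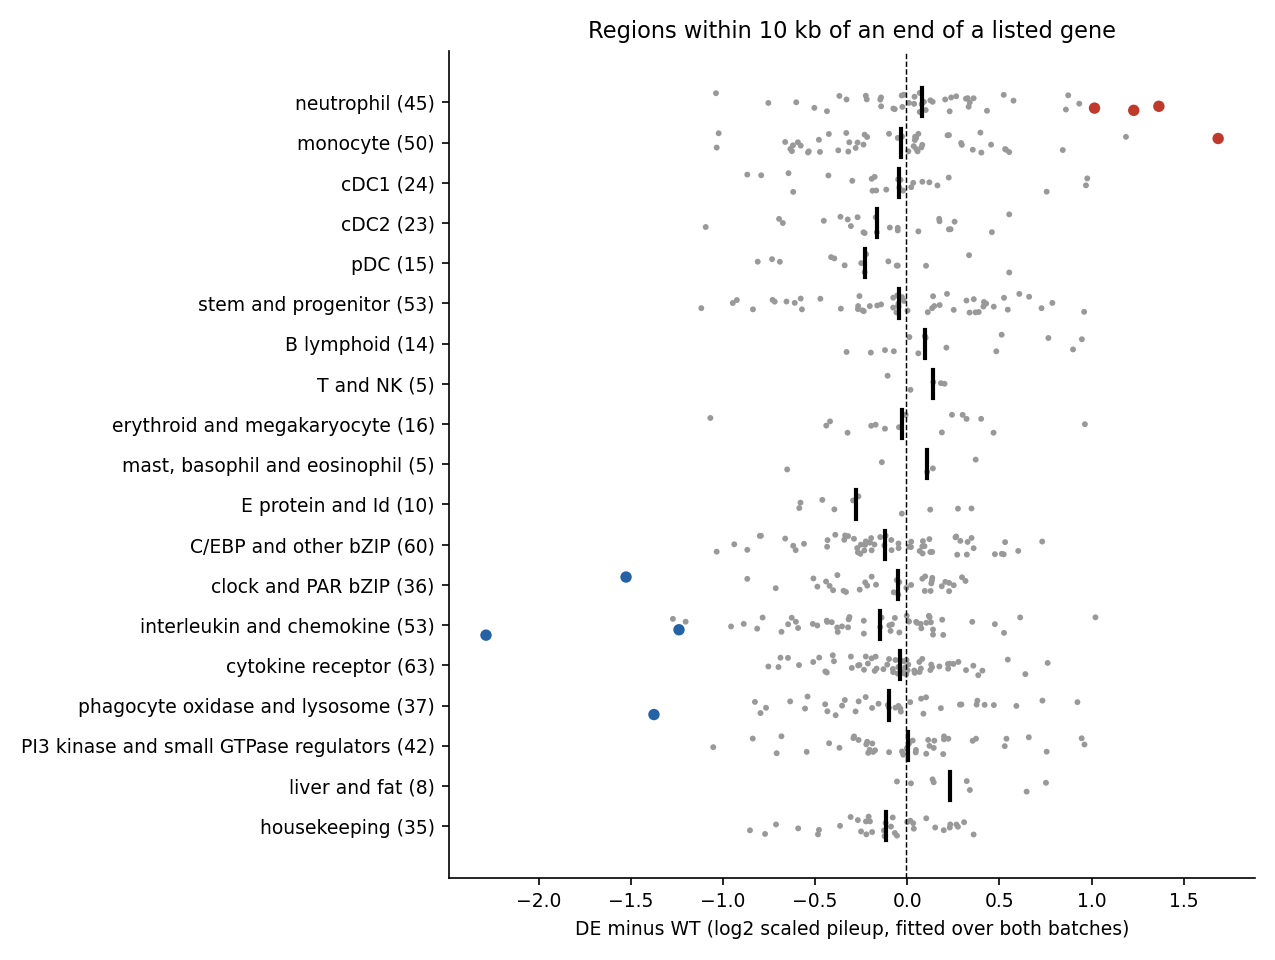
Log2 difference in scaled pileup between DE and WT, fitted over both batches, at regions within 10 kb of an end of a listed gene, with the number tested beside each list; black bars are list medians and the dashed line is the median of all regions. Red points (4 higher) and blue points (4 lower) are past the threshold, and list medians run from -0.28 to 0.23.

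At the strongest WT region of many lineage genes the DE pileup was close to WT. Spi1, which encodes the myeloid factor PU.1, had 306 and 260 in WT and 310 and 281 in DE 0.415 kb from its end (log2 0.00 ± 0.23 SE). Il1b, the interleukin 1β gene, had 450 and 257 in WT and 440 and 291 in DE. Elane, the neutrophil elastase gene, had 167 and 151 in WT and 175 and 151 in DE. At each of these the DE and WT values overlapped. Fli1, an ETS factor gene of stem cells, had 501 and 217 in WT and 460 and 206 in DE, a batch difference that both genotypes showed. Per1, a clock repressor gene, had 383 and 469 in WT and 497 and 372 in DE. Nfe2, a gene of the megakaryocyte lineage, had 578 and 480 in WT and 599 and 399 in DE. Tubb5, a tubulin gene of the housekeeping list, had 271 and 259 in WT and 295 and 266 in DE.

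The lowest adjusted p among these strongest regions belonged to Nfil3, the repressor that cDC1 development requires. The region at its start (chr13:52980200-52982151) had a pileup of 170 and 142 in WT and 80 and 99 in DE, with both DE libraries below both WT libraries. The log2 difference of -0.87 ± 0.27 SE did not pass (limma adjusted p = 0.0831). Junb, a partner of BATF factors, had 307 and 263 in WT and 182 and 223 in DE (log2 -0.56 ± 0.24 SE, limma adjusted p = 0.324). F13a1, a coagulation factor gene of monocytes, had 370 and 257 in WT and 251 and 213 in DE (log2 -0.48 ± 0.24 SE, limma adjusted p = 0.439). Tcf3, which encodes the E protein E2A, had 171 and 133 in WT and 255 and 158 in DE (log2 0.35 ± 0.25 SE, limma adjusted p = 0.691). Id1 had 357 and 284 in WT and 274 and 269 in DE (log2 -0.29 ± 0.23 SE).

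Few of the regions that rose lay at gene ends; the shares that follow are counts without a test. Of the 6081 tested regions within 1 kb of a gene end, 16 rose (0.263%) and 13 fell (0.214%). Inside genes 81 of 9899 rose (0.818%) and 27 fell, and outside genes within 50 kb 57 of 6901 rose (0.826%) and 17 fell. Farther out 33 of 2535 rose (1.30%) and 10 fell (0.394%). Gene ends thus made up 8.56% of the regions that rose, 19.4% of those that fell and 23.9% of all tested. The median log2 difference at gene ends was 0.07 in batch 1 and -0.22 in batch 2, and whether position itself or this batch difference set the counts was not tested. When the tested regions were split into 4 equal groups from weakest to strongest binding (6354 each), 13, 32, 76 and 66 rose and 12, 15, 28 and 12 fell. The SE was larger at weakly bound regions (0.42 at Il1a against 0.24 at Tbc1d16), so these needed a larger difference to pass. Whether this set the counts was not tested.

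**Figure D4:**
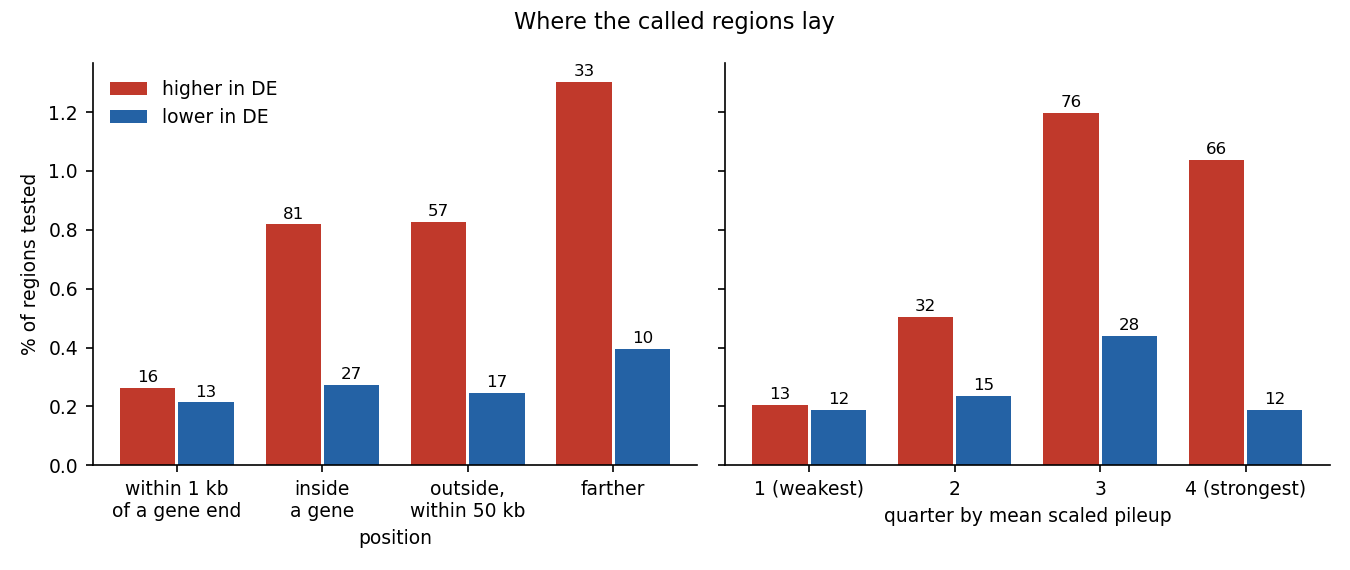
Share of tested regions called higher (red) or lower (blue) in DE, by position relative to protein-coding genes (left) and by 4 equal groups of mean scaled pileup (right); the number of regions stands on each bar. The share that rose was 0.263% at gene ends and 1.30% beyond 50 kb, and it was larger in the 2 stronger groups than in the 2 weaker ones. Weakly bound regions needed a larger difference to pass than strongly bound ones.

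Regions without a peak in some library have no value there and were only counted. Regions with a peak in each DE library but in no WT library numbered 2123 of the 131449 (1.62%), and the reverse 1612 (1.23%). For comparison, 4096 regions were called in both batch 2 libraries only and 1488 in both batch 1 libraries only, and 1320 and 992 in the mixed pairs. The count for DE is within the range of pairs that share no genotype. Their median pileup was 16 and 10 in DE for those found in DE and 12 and 11 in WT for those found in WT. That was below the medians at tested regions (39 and 29 in DE, 32 and 32 in WT). Over all peaks of the lists the medians were 20 and 13 in DE and 11 and 15 in WT. The highest pileups were 115 and 90 among those found in DE and 1869 and 1274 among those found in WT. Regions were not filtered here for mapping artefacts, and the highest mean scaled pileup of a tested region was 343031. Whether such extremes reflect binding was not tested. Gene ends made up 9.47% of the regions found only in DE and 17.9% of those found only in WT, and 16358 of all 131449 regions. By library they made up 12.7% and 20.4% of the regions in WT and 17.8% and 18.8% in DE, so libraries of the same genotype also differed.

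Ranked by the deposited −log10 q, taking the worse rank of both libraries, with a gene within 100 kb, the leading regions found only in DE were again in Thsd4 (68 and 54 fragments), 5.09 kb from Sfi1 (115 and 90), in Hsdl2 (52 and 35), near Lmntd1 (53 and 39) and Trpm3 (51 and 33), and in Cyp2c23 (66 and 41). The Thsd4 region lies beside the one that rose. By the same rank, which is not an order of pileup, those found only in WT were in Hecw2 (37 and 35), Parp8 (36 and 23), Map2k3 (28 and 35) and Sdccag8 (23 and 23) and near Ube2d2a (34 and 21) and Gucy2d (30 and 21).

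Counted by gene, 11306 of 20665 autosomal protein-coding genes (54.7%) had a region within 10 kb of an end called in both WT libraries and 11518 (55.7%) one called in both DE libraries. Of all genes, 761 (3.68%) met this in WT and not in DE, and 973 (4.71%) in DE and not in WT. In the lists, the first kind were Ngp, Id2, Pax5, Zap70, Pf4, Cpa3, Ccl2 and Ccl7. The second kind included Itgae, Snx22, Cd209a, Erg, Cd79b, Rag1, Rag2, Cd4, Prg2, Tcf12, Csf1 and G6pc. Rag1 and Rag2, the recombinase genes of lymphocytes, are neighbours in the genome, as are the chemokine genes Ccl2 and Ccl7, so each pair can rest on the same region. A gene without such a region may still be bound below the level at which a peak was called.

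At the altered enhancer itself, C/EBPα binding in DE was not distinguishable from WT. The strongest region there, 162 kb beyond the Zeb2 gene end (chr2:45279456-45279868), had a pileup of 338 and 318 in WT and 357 and 243 in DE. After scaling these were 334 and 333 in WT and 297 and 276 in DE. Both DE values were lower, but the log2 difference of -0.22 had a 95% interval of -0.67 to 0.24 (limma adjusted p = 0.827). The DC variant had 100 fragments (62.3 after scaling) in batch 1 and no peak in batch 2, and DE exceeded DC there by 2.23 on the log2 scale (limma over 6 libraries, adjusted p = 3.32e-09, DC library 2 missing from this region's fit). Nearby regions 159 kb and 144 kb beyond the gene had 97 and 69 in WT and 106 and 90 in DE, and 194 and 126 in WT and 267 and 154 in DE. Neither passed.

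None of the 10 tested regions of the Zeb2 locus passed the threshold. The largest difference was inside the gene (chr2:45085664-45085936), with 36 and 35 in WT and 25 and 14 in DE (log2 -0.99 ± 0.39 SE, limma adjusted p = 0.251). Close to the gene start, chr2:45114001-45114244 was called in WT only (23 and 27), as was the weaker chr2:45117195-45117583 (11 and 6). Beyond the other end, chr2:44952828-44953253 was called in DE only (45 and 20).

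The DC libraries, from the other variant of the enhancer, can be set beside DE, but both are compared with the same WT libraries, so any likeness between them partly reflects those. Before scaling, the median pileup at tested regions was 53 and 24 in DC, so scaled pileups are given. At Asic2 the scaled pileup was 43.6 and 71.2 in DC against 69.2 and 87.6 in DE, and at Prl2c3 96.0 and 111 against 102 and 76.2. At Irf8 it was 49.2 and 43.9 against 69.2 and 38.7. At the S100a9 start it was 123 and 176 against 68.3 and 101.2. Among the regions that fell, Il1a had 10.6 and 9.09 in DC against 7.50 and 4.55 in DE, and Arhgap22 21.2 and 13.6 against 32.5 and 28.4. Of the regions that rose in DE and had a DC value, 184 of 185 were also higher in DC than in WT. Over all tested regions 12035 of 25255 were. Of those that fell, 63 of 64 were lower in DC than in WT, compared with 13220 of 25255. The shared WT libraries entered the selection, so these counts are not separate support. Compared directly, DE differed from DC at 19 of 25255 regions (0.0752%; limma over the 6 libraries with batch as a term). Of the 187 regions that rose in DE against WT, 1 differed from DC, the region at the end of Dynlt1b, and of the 67 that fell, 0 did, which does not show that DE and DC bind alike.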

How the data were processed

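C/EBPα CUT&RUN peak lists of 2 WT and 2 DE libraries were analysed. The submitters' processing notes name mm10 as the build and list HOMER, MACS2 2.2.9.1, Bowtie2, Trimmomatic and SAMtools without saying what each did. The deposited lists give each peak a fold enrichment over local background (a ratio), a −log10 p-value, a −log10 q-value and a score. Summit pileup was solved from the deposited fold and p-value (at least 99.986% of peaks per list). It was median-scaled, log2-transformed and tested with limma 3.58.1 (R 4.3.3, trend, batch as a term, Benjamini-Hochberg adjustment) over autosomal regions called in all 4 libraries; the pairing comes from the batch label. Tests between DE and DC used a fit of 6 libraries. The script was tested on simulated data. Gene positions came from RefSeq (GRCm38.p6), and all 282 distinct genes of the 19 lists matched. Members, lists and tests were chosen with earlier results of these data known. Named regions are, of those past the threshold with a protein-coding gene within 100 kb, the 14 higher and 14 lower with the smallest adjusted p (1 per gene), every called region within 10 kb of a listed gene, the 3 genes per list with the strongest WT region, the 6 regions found only in each genotype with the best worse-of-both rank by −log10 q and a gene within that distance, and the Zeb2 locus; others are said to be picked after their values were seen. Alternatives were other scalings, the deposited fold, filters, overlap, chromosomes, windows, no batch term, leaving out libraries and, added after seeing the data, a robust variance estimate. The IgG libraries, the merged region table and read counts were not analysed here. Precision is limited by 2 libraries per genotype and by unknown depth.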

Additional observations from a re-analysis of the deposited data

How the results depend on the processing

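Scaling by the background floor instead of the median raised the log2 difference of all regions by 0.53 (median) and left 3 regions higher and 0 lower; the 18 named higher and 16 named lower regions kept their direction. Using the deposited fold in place of the pileup gave 106 higher and 44 lower, of which 80 and 25 were among the regions called here. The cause of these differences was not tested. Without the replicate block (batch) 0 regions were higher and 0 lower; the labels name the batches, so the libraries are paired by batch. Leaving out 1 library without the block gave 0 to 97 higher and 0 to 15 lower regions; with the spread from 6 libraries and the block it gave 90 (without WT replicate 2), 121 (without DE replicate 2) and up to 190 higher, and 9 (without WT replicate 2) to 59 lower, and 39 higher and 0 lower regions passed in all 4 such fits. Each such fit assumes that the lone library varies like the others. Regions found only in DE were 4223 to 16187, and only in WT 2831 to 43757, when a library was left out, since fewer calls are then required. The log2 peak number of DE over WT was -0.31, and it was 0.0096 without replicate 1 and -0.64 without replicate 2. Windows of 1 kb and 50 kb around listed genes held 1 and 11 higher and 0 and 13 lower regions, against 4 and 4, counting a region under each list. The strongest Akt1 region, at 0.36, had a log2 difference of -0.49 to 1.20 when a WT library was left out. A robust variance estimate, chosen after seeing the data, gave 183 higher and 67 lower.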

Other observations

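Around Myc, the growth-control transcription factor gene, regions far from the gene differed in both directions. They were picked after their values were seen. A region 187 kb away had a pileup of 43 and 28 in WT and 116 and 65 in DE, and one 124 kb away had 33 and 23 in WT and 92 and 57 in DE. A region 402 kb away had 62 and 38 in WT and 20 and 13 in DE. The log2 differences were 1.26, 1.33 and -1.65 (limma adjusted p = 0.0142, 0.0142 and 0.00434). The gene desert around Myc holds enhancers of many tissues, and the nearest gene is the only link made here.

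Regions near genes of leukocyte migration and activation were also among the calls; they were picked after their values were seen. Ptafr, the receptor gene for platelet-activating factor, had 42 and 74 in WT and 29 and 14 in DE inside the gene (2.89-fold lower). Ccr7, a chemokine receptor gene of migrating dendritic cells, had 65 and 62 in WT and 39 and 14 in DE at a region 9.82 kb away (2.84-fold lower). Marco, a scavenger receptor gene, had 45 and 23 in WT and 134 and 75 in DE (2.98-fold higher). Fasl, a death ligand gene, had 36 and 13 in WT and 147 and 45 in DE at a region 6.003 kb away (3.60-fold higher).

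Besides the Zeb2 enhancer, the region with the smallest adjusted p between DE and DC overlapped the histone gene H2ac18. It had 371 and 383 fragments before scaling in DE, 52 and 232 in DC and 263 and 415 in WT. After scaling, DC library 2 lay between the DE libraries at H2ac18, so the difference there rested on DC library 1. At Degs1 the DC libraries had 329 and 27 fragments, against 20 and 23 in DE, so a single DC library stood apart there.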
